A study of Homo sapiens with 6 samples.

Results

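The genes described here are 10 regulators of the integrated stress response, taken by symbol from the 33496 genes of each expression table: ATF4, ATF5, ATF3, DDIT3, CEBPB, CEBPG, TRIB3, NUPR1, SESN2 and DDIT4. All 10 were found once by symbol. Their RNA was measured by RNA-seq in 6 libraries of ARPE-19, an established human retinal pigment epithelial (RPE) cell line labelled as wild type. The cell line field of the labels counts upward from library to library, but the titles and the study's methods name ARPE-19, which was used for all. Every culture received erastin (5 μM, 24 h), which blocks cystine import and thereby starts ferroptosis, an iron-dependent death by lipid peroxidation. In 3 libraries erastin was given alone (Era). In the other 3, VK1, a form of vitamin K, was added at 10 μM 1 h before erastin (Era+VK). The study's methods give ethyl alcohol as the solvent of VK1 and name no such vehicle for Era. Cells that received no erastin were not analysed here, and each value below sets erastin after VK1 against erastin alone.

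The integrated stress response begins with kinases that each sense a different stress, such as unfolded protein, amino acid shortage, double-stranded RNA or heme shortage, and that phosphorylate the translation factor eIF2. Bulk protein synthesis then drops, while mRNAs with particular upstream reading frames, ATF4 among them, are translated more. ATF4 is a basic leucine zipper (bZIP) factor that pairs with C/EBP proteins and turns on genes of amino acid synthesis and uptake. It also turns on further regulators, which prolong the response, restrain it or steer it towards cell death. Because ATF4 is controlled mainly at translation, its mRNA level and its protein level need not move together, and only mRNA was measured here.

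ATF4, CEBPG and NUPR1 were lower in Era+VK than in Era, by 31.8%, 35.3% and 38.6% of their mean level. TRIB3 was 30.7% lower in the mean and just missed the threshold of the test. ATF3, SESN2 and DDIT4 were also lower in each Era+VK library than in any Era library, but by 11.5% to 12.9%, and did not pass. ATF5, DDIT3 and CEBPB overlapped between the groups.

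Values are FPKM, a length- and library-scaled fragment count, as the authors deposited them. The 11981 genes whose 6 libraries averaged 1 FPKM or more, all 10 regulators included, were tested with limma on log2(FPKM + 1), with Benjamini-Hochberg adjustment over all of them and a threshold of 0.05. Fold changes are on that log2 scale, and the added 1 makes those of weakly expressed genes smaller than the ratio of their FPKM. Of the 10 regulators, 3 were called, against 0.618% of all genes tested. All 3 were lower in Era+VK, against 0.484% of all genes, and 0 were higher, against 0.134%. At an unadjusted p under 0.05, limma gave 6 lower regulators, against 5.42% of all genes tested, and 1 higher, against 10.4%. The groups did not overlap for 7 regulators, all with the lower values in Era+VK, against 7.04% of all genes tested. For 0 regulators were all Era+VK libraries above all Era libraries, against 15.1% of all genes. The median log2 fold change of all genes tested was 0.03. The study's methods say in general that experiments were repeated, but neither they nor the labels tie each library to a separate culture, so the p-values measure only the spread between these libraries, which may be technical. In bulk RNA, fewer cells with a transcript and less of it per cell cannot be told apart.

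Between 24143 and 24601 genes per library had a value above 0, and the depth of the libraries is unknown. Mitochondrially encoded genes took 16% to 18.5% of the FPKM of a library. Of 11 RPE markers found, MITF, OTX2, KRT8, KRT18 and PMEL reached 1 FPKM in each library. RLBP1, LRAT, TYRP1 and SERPINF1 stayed at or under 0.91 FPKM, and the visual cycle gene RPE65 stayed at or under 0.02 FPKM. BEST1 varied within both groups, from 0.65 to 56.98 FPKM in Era and from 0.60 to 36.45 FPKM in Era+VK. The summed level of endothelial markers was at most 0.45 FPKM. Of 3 leukocyte markers found, PTPRC and CD14 stayed at or under 0.14 FPKM, and CD68, also a lysosomal gene of other cells, made up nearly all of a sum of 43.35 to 50.86 FPKM in Era and 34.60 to 38.41 FPKM in Era+VK. The sum of 4 mesenchymal markers was 33.86 to 37.46 FPKM in Era and 39.82 to 49.81 FPKM in Era+VK, mostly PDGFRB, with THY1 at or under 0.02 FPKM. The part of these differences in the results below was not tested. Era+VK replicates 2 and 3 stand apart, since their 10 globin genes sum to 234.86 and 228.34 FPKM against 0.24 to 0.61 FPKM in the other 4 libraries, Era+VK replicate 1 included. Each regulator's log2 fold change is therefore also given for Era+VK replicate 1 alone, whose variation is then assumed to be like that of Era.

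**Figure D1:**
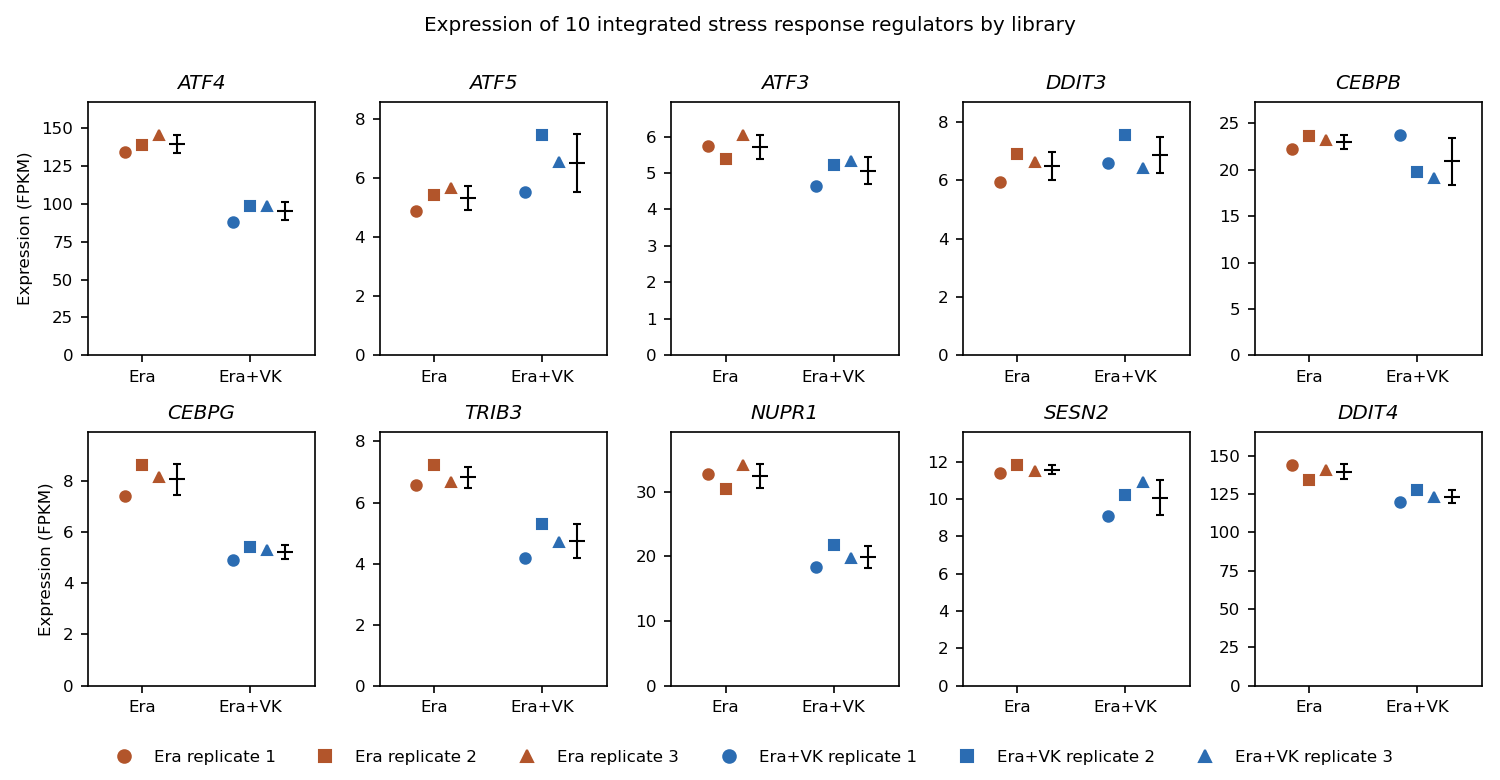
FPKM (vertical axis, from 0) of each of the 10 regulators in the 3 Era and 3 Era+VK libraries, with 1 panel per gene, 1 symbol per replicate, and the mean and SD of each group in black. ATF4, CEBPG, TRIB3 and NUPR1 show the widest gap between the groups, whereas ATF5, DDIT3 and CEBPB overlap.

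ATF4, the central bZIP factor of the response, lies on GRCh38 at chr22:39519695-39522685 on the plus strand. Its level was 134.26, 138.59 and 145.67 FPKM in Era replicates 1, 2 and 3, and 88.18, 98.78 and 98.33 FPKM in Era+VK replicates 1, 2 and 3. The highest Era+VK library lay well under the lowest Era library. The mean went from 139.5 ± 5.76 FPKM (SD, n = 3) to 95.1 ± 5.99 FPKM (SD, n = 3). In limma the log2 fold change was -0.55 (SE 0.06, 95% interval -0.69 to -0.41, adjusted p = 0.0128). ATF4 stood at rank 213 of the genes tested by mean level. It has processed pseudogene copies whose reads could be shared with it, and ATF4P1 to ATF4P4 were listed at 0.47 FPKM or less. In Era+VK replicate 1 alone the log2 fold change was -0.66 (limma adjusted p = 0.0255). Without any 1 of the Era libraries, or with no filter on low genes, the direction held but ATF4 was no longer called, with limma adjusted p from 0.0683 to 0.101 without an Era library and 0.0877 with no filter.

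CEBPG encodes a C/EBP factor without a classical activation domain that forms heterodimers with ATF4. It lies at chr19:33373330-33382686 on the plus strand. Its level was 7.40, 8.61 and 8.14 FPKM in the Era libraries and 4.90, 5.42 and 5.30 FPKM in the Era+VK libraries. The groups were clearly apart, and the spread within Era+VK was small. The mean was 8.05 ± 0.610 FPKM in the former and 5.21 ± 0.272 FPKM in the latter (SD, n = 3 each). The log2 fold change was -0.54 (SE 0.06, 95% interval -0.69 to -0.39, limma adjusted p = 0.0196). CEBPG was no longer called without Era+VK replicate 3 (limma adjusted p = 0.0541), without any 1 of the Era libraries (0.0677 to 0.107), with no filter (0.109), or in Era+VK replicate 1 alone (log2 fold change -0.61, limma adjusted p = 0.1004).

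ATF4 and a C/EBP partner together bind the C/EBP-ATF response element, searched here as TGATGNAA on both strands in the window from 250 bases before to 50 bases after the RefSeq gene start. These starts can lie inside the gene range given here from GENCODE, by 49684 bases for ATF3 and 18508 bases for TRIB3, so for these genes the window is that of an internal start. Of the 9 regulators with a promoter in the table, only CEBPG held these letters (11.1%), against 1270 of 35116 promoters (3.62%) in all. The other 8 windows did not hold them, which says nothing of elements elsewhere in or around those genes. The CEBPG promoter is shown because it is the 1 regulator promoter with a match; its match, in capitals, begins 42 bases before the start (RefSeq, GRCh38.p14, chr19:33373863-33374162, plus strand).
CEBPG promoter: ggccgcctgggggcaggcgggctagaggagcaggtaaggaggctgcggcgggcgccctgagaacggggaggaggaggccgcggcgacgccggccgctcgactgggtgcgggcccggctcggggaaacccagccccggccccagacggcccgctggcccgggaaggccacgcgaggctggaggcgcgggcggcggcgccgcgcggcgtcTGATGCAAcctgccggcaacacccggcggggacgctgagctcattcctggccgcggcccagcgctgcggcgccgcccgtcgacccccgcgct

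For comparison, the 40 bases around the match are given below for CEBPG, for 2 tRNA synthetase genes whose values ran closest to those of ATF4 (IARS1 and MARS1), and for GARS1 and CHAC1, which changed most in their lists. SLC1A5 and GOT1, chosen after their values were seen, are added because they hold the same letters and were not called. Their log2 fold changes were 0.13 and -0.02 (limma adjusted p = 0.820 and 0.926). SLC1A5 varied within Era+VK, at 4.04, 8.93 and 7.27 FPKM in replicates 1, 2 and 3, against 5.45 to 6.36 FPKM in Era. Replicate 1 thus lay below all Era libraries and replicates 2 and 3 above them. YARS1 and SHMT2, also close to ATF4, were not in the promoter table. Each is written 5′ to 3′ on the strand of its gene, with the match in capitals, which reads TTNCATCA where the element is on the opposite strand. They lie on GRCh38.p14 at chr19:33374055-33374094 (CEBPG, plus), chr9:92293687-92293726 (IARS1, minus), chr12:57488048-57488087 (MARS1, plus), chr7:30594829-30594868 (GARS1, plus), chr15:40953246-40953285 (CHAC1, plus), chr19:46784888-46784927 (SLC1A5, minus) and chr10:99430799-99430838 (GOT1, minus).
CEBPG: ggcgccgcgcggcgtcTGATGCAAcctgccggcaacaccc
IARS1: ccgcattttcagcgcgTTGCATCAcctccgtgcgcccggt
MARS1: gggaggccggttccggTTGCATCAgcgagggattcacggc
GARS1: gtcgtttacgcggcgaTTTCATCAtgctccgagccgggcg
CHAC1: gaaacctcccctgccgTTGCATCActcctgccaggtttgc
SLC1A5: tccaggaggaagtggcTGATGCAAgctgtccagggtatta
GOT1: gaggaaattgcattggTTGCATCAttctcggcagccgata
All share the version TGATGCAA except GARS1, which has TGATGAAA. Of 14 tested genes of the lists described further on that hold the letters, 7 were called lower and 7 were not called. A match is a description of these letters and not evidence of binding. The letters were present in 5 of 16 promoters of cytosolic tRNA synthetases (31.2%), all 5 of them of genes called lower. They were present in 10 of 40 promoters of genes called lower (25.0%), these 5 included. Of 58 genes called lower, only these 40 had a promoter to search. Among genes called higher, 0 of 12 promoters held the letters. The 3.62% given above covers all promoters, whether or not their genes were tested, and the share among tested genes was not counted.

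NUPR1 encodes a small, largely unstructured chromatin-associated protein that is induced by stress and acts as a transcriptional coregulator. It lies at chr16:28532708-28539174 on the minus strand. Its level was 32.67, 30.42 and 34.11 FPKM in Era and 18.28, 21.69 and 19.68 FPKM in Era+VK. The 3 Era+VK values lay far under the Era values, with the lowest in replicate 1. The mean decreased from 32.4 ± 1.86 FPKM to 19.9 ± 1.71 FPKM (SD, n = 3 each). This gave a log2 fold change of -0.68 (SE 0.07, 95% interval -0.84 to -0.52, limma adjusted p = 0.0128), the largest among the 10. In Era+VK replicate 1 alone it was -0.79 (limma adjusted p = 0.0255). Like ATF4, NUPR1 was no longer called without any 1 of the Era libraries (limma adjusted p 0.0665 to 0.0720) or with no filter (0.0813).

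TRIB3 encodes a pseudokinase that ATF4 and CHOP induce and that binds ATF4 and holds back its activity. It lies at chr20:362835-397559 on the plus strand. Its level was 6.57, 7.23 and 6.67 FPKM in Era and 4.19, 5.30 and 4.70 FPKM in Era+VK. No Era+VK library reached the Era range, but Era+VK varied more than Era. The means were 6.82 ± 0.356 and 4.73 ± 0.556 FPKM (SD, n = 3 each), and the log2 fold change was -0.45 (SE 0.08, 95% interval -0.63 to -0.27, limma adjusted p = 0.0552). TRIB3 passed in 4 of 13 alternatives: with a minimum of 1 FPKM in every library (adjusted p = 0.0381), after quantile normalization (0.0429), after rescaling without mitochondrially encoded genes (0.0424) and without Era+VK replicate 2 (0.0374, all in limma). It did not pass in the other 9, with limma adjusted p of 0.158 to 0.220 without any 1 of the Era libraries, 0.110 and 0.138 without Era+VK replicate 1 or 3, and 0.196 with no filter. In Era+VK replicate 1 alone the log2 fold change was -0.59 (limma adjusted p = 0.0747).

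ATF3 and DDIT3 are further bZIP factors downstream of ATF4. ATF3 mostly acts as a repressor and is also induced by many other stresses. ATF3 (chr1:212565334-212620777, plus strand) was at 5.73, 5.39 and 6.05 FPKM in Era and 4.64, 5.22 and 5.34 FPKM in Era+VK. The groups did not overlap, but the highest Era+VK library came within a small distance of the lowest Era library. The log2 fold change was -0.15, with a 95% interval from -0.30 to 0.00094 and a limma adjusted p of 0.319. It was -0.25 in Era+VK replicate 1 alone and -0.10 without that library (limma adjusted p = 0.262 and 0.552).

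DDIT3 encodes CHOP, which promotes cell death when the response lasts. DDIT3 (chr12:57516588-57521737, minus strand) was at 5.96, 6.90 and 6.62 FPKM in Era and 6.60, 7.57 and 6.44 FPKM in Era+VK. The libraries of both groups were interleaved. The log2 fold change was 0.07 (95% interval -0.10 to 0.24, limma adjusted p = 0.684), and 0.02 in Era+VK replicate 1 alone. Without Era+VK replicate 2 it was 0.0071. Of the exonic bases of DDIT3, 355 are shared with MARS1 on the opposite strand, and the sources do not say whether strand was used in counting. MARS1 itself went from 27.9 ± 0.157 to 19.2 ± 1.31 FPKM (SD, n = 3 each, log2 fold change -0.52, limma adjusted p = 0.0128). Reads of the shared bases could count for either gene, and their part in the DDIT3 value was not tested.

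ATF5 resembles ATF4 in its translational control and is tied to the mitochondrial stress response. ATF5 (chr19:49928702-49933935, plus strand) was at 4.88, 5.42 and 5.66 FPKM in Era and 5.52, 7.47 and 6.56 FPKM in Era+VK. The lowest Era+VK library lay within the Era range and the other 2 lay above it. The mean was 5.32 ± 0.400 and 6.52 ± 0.976 FPKM (SD, n = 3 each), and the log2 fold change was 0.24 (95% interval 0.02 to 0.47, limma adjusted p = 0.290). It was the 1 regulator with a higher value at an unadjusted p under 0.05 (0.0380). ATF5 shares 626 exonic bases with NUP62 on the opposite strand, a nuclear pore gene at 13.8 ± 0.477 and 13.2 ± 0.680 FPKM (SD, n = 3 each, limma adjusted p = 0.604). In Era+VK replicate 1 alone, the log2 fold change of ATF5 was 0.05, while replicates 2 and 3, which hold globin transcripts, lay 0.42 and 0.26 above the mean of Era. The part of these transcripts in the ATF5 value was not tested.

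CEBPB encodes a C/EBP factor that partners with ATF4 and CHOP and is also induced by inflammatory signals. CEBPB (chr20:50190734-50192689, plus strand) was at 22.20, 23.60 and 23.21 FPKM in Era and 23.79, 19.77 and 19.15 FPKM in Era+VK. Its replicates disagreed in direction, since Era+VK replicate 1 held the highest value of all 6 libraries and replicates 2 and 3 the lowest. The log2 fold change was -0.14 (95% interval -0.32 to 0.05, limma adjusted p = 0.441), and in Era+VK replicate 1 alone its sign turned, with a value of 0.05. The split ran along the libraries with and without globin transcripts, and their part in it was not tested. CEBPB is a gene of 1 exon whose antisense neighbour CEBPB-AS1 was at 0.14 FPKM or less.

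SESN2 and DDIT4 are no transcription factors. Both restrain the growth kinase complex mTORC1, SESN2 (sestrin 2) as a leucine sensor that acts through the GATOR complexes and DDIT4 (REDD1) through the TSC complex. SESN2 (chr1:28259527-28282491, plus strand) was at 11.38, 11.83 and 11.51 FPKM in Era and 9.08, 10.21 and 10.94 FPKM in Era+VK. The Era values were tight and the Era+VK values spread below them. The log2 fold change was -0.19 (95% interval -0.34 to -0.03, limma adjusted p = 0.238). Its size depended on Era+VK replicate 1, with -0.32 in that library alone and -0.12 without it (limma adjusted p = 0.140 and 0.409).

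DDIT4 (chr10:72273920-72276036, plus strand) was at 144.08, 134.52 and 140.85 FPKM in Era and 119.60, 127.55 and 123.26 FPKM in Era+VK. The groups did not overlap, and the gap was narrow beside that of ATF4, which had about the same level in Era. The mean was 139.8 ± 4.86 and 123.5 ± 3.98 FPKM (SD, n = 3 each), and the log2 fold change was -0.18 (SE 0.05, 95% interval -0.29 to -0.07, limma adjusted p = 0.150). In Era+VK replicate 1 alone it was -0.22 (limma adjusted p = 0.204). DDIT4 shares 847 exonic bases with the antisense gene DDIT4-AS1, which was not analysed here.

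**Figure D2:**
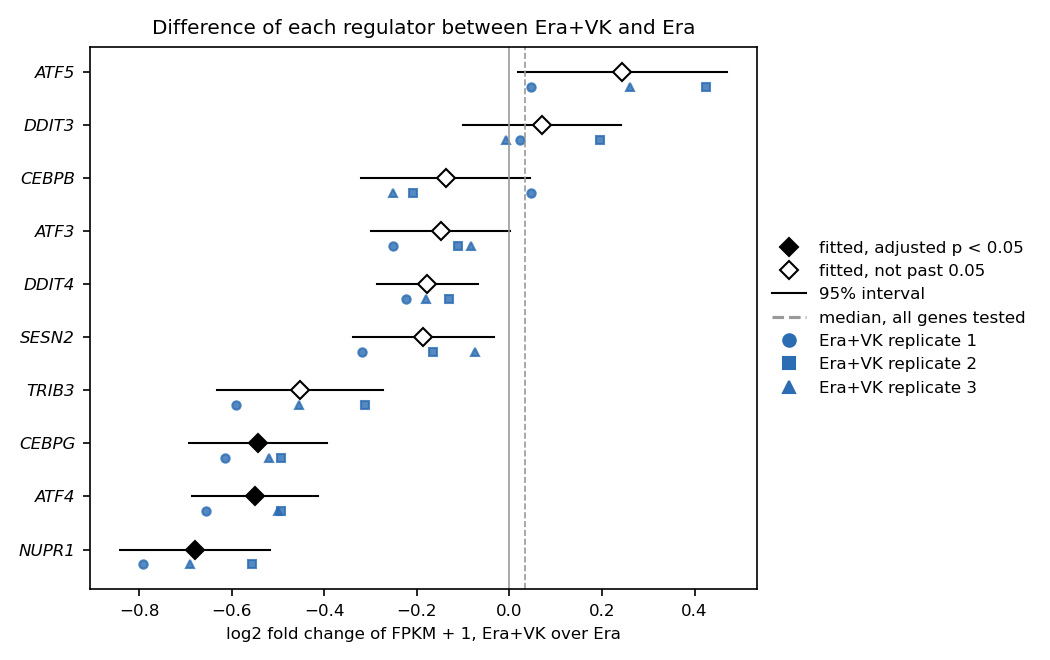
Fitted log2 fold change of FPKM + 1, Era+VK over Era (diamonds, filled where the limma adjusted p was under 0.05), with its 95% interval, for each regulator. Blue symbols give each Era+VK library against the mean of Era, and the dashed line marks the median of all genes tested (0.03). NUPR1, ATF4 and CEBPG are filled, and in the 7 regulators whose groups do not overlap replicate 1 lies furthest to the left.

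The Era+VK libraries were not alike. In all 7 regulators whose groups did not overlap, Era+VK replicate 1 held the lowest value of the 6 libraries. Among all 843 genes tested whose Era+VK libraries all lay under the Era libraries, replicate 1 was the lowest in 375 (44.5%). Replicate 1 is the Era+VK library with a globin sum of 0.29 FPKM. Within a group, the coefficient of variation of a regulator was between 2.001% (SESN2) and 7.58% (CEBPG) in Era and between 3.22% (DDIT4) and 15.0% (ATF5) in Era+VK.

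The order of the levels also differed between the groups. In Era, DDIT4 and ATF4 came first and overlapped, followed by NUPR1, CEBPB, SESN2 and CEBPG without overlap between neighbours. TRIB3, DDIT3, ATF3 and ATF5 came last, each overlapping with the next. In Era+VK, DDIT4 lay above ATF4 without overlap, and NUPR1 (18.28 to 21.69 FPKM) overlapped with CEBPB (19.15 to 23.79 FPKM). DDIT3 and ATF5 overlapped with each other and lay above CEBPG, ATF3 and TRIB3, which overlapped among themselves.

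To compare the regulators with ATF4, each was divided by ATF4 in the same library, which removes the scaling of a library from the percentages below. The test used log2 ratios of FPKM + 1, from which the scaling is not fully removed, and a two-sided exact permutation test over the 6 libraries. With 3 against 3 its p cannot go below 0.1, so no difference could pass 0.05. CEBPG was 5.51%, 6.21% and 5.59% of the ATF4 FPKM in the Era libraries and 5.56%, 5.49% and 5.39% in the Era+VK libraries. TRIB3 stood at 4.89%, 5.22% and 4.58% of ATF4 in Era and 4.75%, 5.37% and 4.78% in Era+VK. For NUPR1 the percentages were 24.3, 21.9 and 23.4 in Era and 20.7, 22.0 and 20.0 in Era+VK. The groups overlapped for all 3 of these genes. The differences of their mean log2 ratios were 0.0064 for CEBPG, 0.10 for TRIB3 and -0.13 for NUPR1, with exact permutation p of 1, 0.3 and 0.2 (1, 0.338 and 0.257 adjusted over the 9 genes). Without the added 1 these differences were -0.073, 0.020 and -0.15.

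The other 6 regulators were all higher relative to ATF4 in each Era+VK library than in any Era library, each with the smallest exact permutation p of 0.1 (0.15 adjusted over the 9 genes). ATF4 itself had a log2 fold change of -0.55, against a median of 0.03 over all genes tested. A gene whose own level did not change would thus also be higher relative to ATF4. How many of all genes tested were higher in this way was not counted. ATF5 was 3.63%, 3.91% and 3.89% of ATF4 in Era and 6.26%, 7.56% and 6.67% in Era+VK, a difference of 0.79 in log2 ratio. DDIT3 was 4.44%, 4.98% and 4.54% of ATF4 in Era and 7.48%, 7.66% and 6.55% in Era+VK, a difference of 0.62. The differences were 0.41 for CEBPB, 0.40 for ATF3, 0.37 for DDIT4 and 0.36 for SESN2. DDIT4 was 96.7% to 107% of ATF4 in Era and 125% to 136% in Era+VK.

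**Figure D3:**
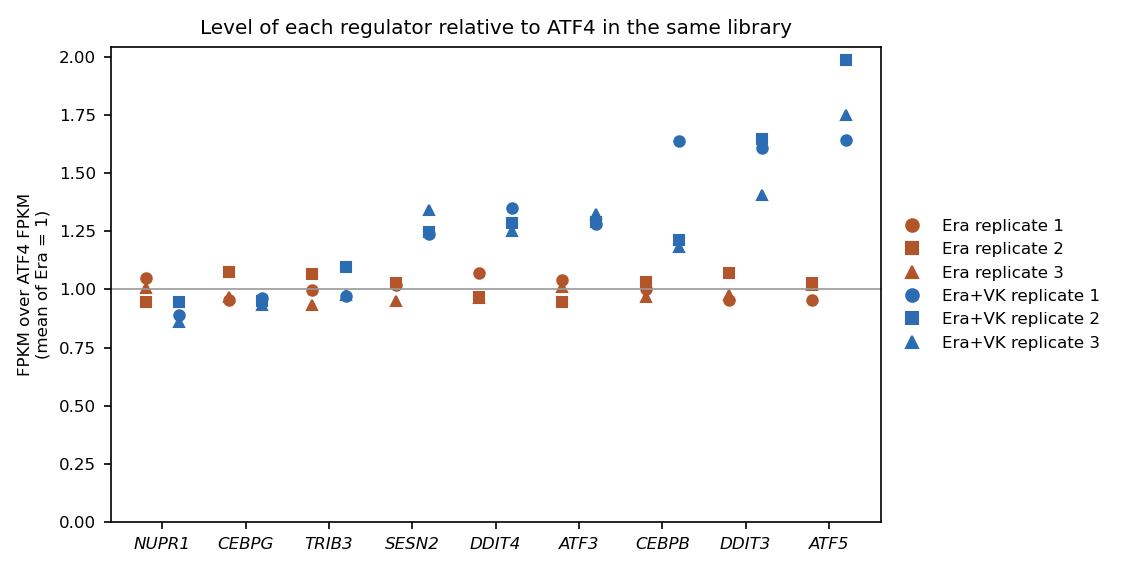
FPKM of each regulator divided by the FPKM of ATF4 in the same library (vertical axis, from 0, with the mean of the 3 Era libraries set to 1, no pseudocount), with 1 symbol per library. NUPR1, CEBPG and TRIB3 stay near 1 in Era+VK, while the other 6 lie above their Era libraries, ATF5 and DDIT3 furthest.

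Of all genes tested, the 5 whose log2 ratios to their own Era mean stayed closest to those of ATF4 were IARS1, MARS1, YARS1, SHMT2 and CEBPG. Their largest difference from ATF4 in any of the 6 libraries was 0.05, 0.06, 0.06, 0.08 and 0.10 on the log2 scale. IARS1, MARS1 and YARS1 encode cytosolic tRNA synthetases and SHMT2 a mitochondrial serine hydroxymethyltransferase. IARS1 was at 18.34, 18.12 and 18.91 FPKM in Era and 11.63, 12.82 and 13.01 FPKM in Era+VK.

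Around the regulators, lists of related genes held 125 different genes that could be tested, of which limma called 24 lower and 0 higher. In Era+VK replicate 1 alone it called 18, and without any 1 of the Era libraries 1. Upstream, the 16 genes of eIF2 control, with the eIF2 subunits and kinases, the eIF2B subunits and the phosphatase subunits, had 1 call lower and 0 higher with a median of 0.02 in log2 fold change (2 lower and 0 higher at an unadjusted p under 0.05). The gene called was EIF2S2, a subunit of eIF2 (54.9 ± 1.82 against 43.8 ± 0.611 FPKM, SD, n = 3 each, log2 fold change -0.32, limma adjusted p = 0.0229). EIF2S1 and EIF2S3, further subunits of eIF2, were also lower in each Era+VK library than in any Era library. Their log2 fold changes were -0.10 and -0.22 (limma adjusted p = 0.351 and 0.0965). In 4 of the 16 genes all Era+VK libraries lay under all Era libraries, against 7.04% of all genes tested. In 0 they lay above, against 15.1%. The kinases gave log2 fold changes of 0.07 for EIF2AK1 (HRI), 0.07 for EIF2AK2 (PKR), 0.14 for EIF2AK3 (PERK) and -0.0025 for EIF2AK4 (GCN2), with limma adjusted p from 0.366 to 0.991. PPP1R15A (GADD34), which ATF4 induces and which brings the phosphatase to eIF2, was at 24.5 ± 0.601 and 25.4 ± 0.255 FPKM (SD, n = 3 each, log2 fold change 0.05, limma adjusted p = 0.588). These are levels of kinase mRNA, and eIF2 phosphorylation was not measured here.

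Downstream, 11 of 15 tested enzymes of amino acid metabolism known as ATF4 targets were called lower and 0 higher, with 0 higher also at an unadjusted p under 0.05 in limma (median log2 fold change -0.55). CHAC1, which degrades glutathione, was at 3.39 ± 0.568 and 0.943 ± 0.389 FPKM (SD, n = 3 each), with a log2 fold change of -1.19 (limma adjusted p = 0.0263). PCK2, the mitochondrial phosphoenolpyruvate carboxykinase, was at 20.8 ± 0.413 and 10.3 ± 0.712 FPKM (SD, n = 3 each), with -0.95 (limma adjusted p = 0.00241). Cytosolic tRNA synthetases were called lower in 9 of 20 and higher in 0 (14 lower and 1 higher at an unadjusted p under 0.05, median -0.31), with GARS1 at -0.79 and WARS1 at -0.70.

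Amino acid transporters were called lower in 2 of 7 and higher in 0 (5 lower and 0 higher at an unadjusted p under 0.05, median -0.31). Those called were SLC7A11, the cystine transporter subunit that erastin blocks, with a log2 fold change of -0.66 (limma adjusted p = 0.0337), and SLC7A1, an arginine and lysine transporter, with -0.37 (limma adjusted p = 0.0450). Among 13 other stress targets of ATF4 or CHOP, 1 was called lower and 0 higher (7 lower and 0 higher at an unadjusted p under 0.05, median -0.17). It was XPOT, the tRNA exporter, with a log2 fold change of -0.48 (limma adjusted p = 0.0198). The log2 fold changes of ATF4 and CEBPG, -0.55 and -0.54, were close to the median of the enzyme list. They were further from 0 than the medians of the transporters (-0.31), tRNA synthetases (-0.31) and other stress targets (-0.17).

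Of 33 tested bZIP factors other than the regulators, limma called 0 in either direction (4 lower and 3 higher at an unadjusted p under 0.05), and their median log2 fold change was -0.01. Among 9 tested genes that restrain mTORC1 beside SESN2 and DDIT4, it called 0 (1 lower and 0 higher at an unadjusted p under 0.05, median 0.00).

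Of the 7 tested paralogs of the regulators, limma called 0 as well (2 lower and 0 higher at an unadjusted p under 0.05, median -0.17). TRIB1 and TRIB2, the relatives of TRIB3, had log2 fold changes of -0.18 and -0.17, with limma adjusted p of 0.290 and 0.416. The sestrin SESN1 was at -0.03, and SESN3 stayed at 0.22 FPKM or less and was not tested. DDIT4L, the relative of DDIT4, was at -0.10. Of the C/EBP family, CEBPA was at -0.17 and CEBPD at 0.01, while CEBPE stayed at 0.04 FPKM or less. JDP2, the relative of ATF3, was at -0.26 (limma adjusted p = 0.166).

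**Figure D4:**
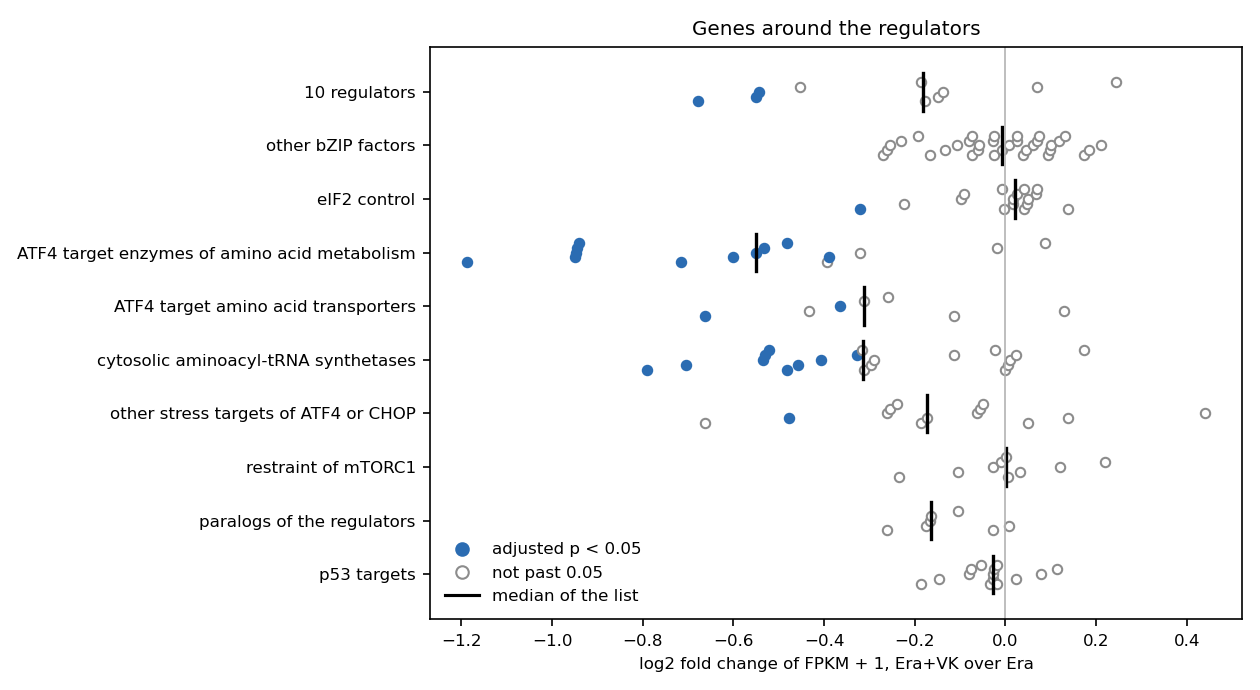
log2 fold change of FPKM + 1, Era+VK over Era, of each tested gene (circles, filled blue where the limma adjusted p was under 0.05) in the 10 regulators and in 9 lists around them, with the median of each list as a black bar. Calls gather in the enzymes, transporters and tRNA synthetases at negative values, and the bZIP, mTORC1, paralog and p53 lists hold none.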

How the data were processed

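The authors deposited FPKM values per gene for each of the 6 libraries, with 2 decimals, beside the identifier, symbol and GO annotation of the gene. The submitters' processing notes name cutadapt, HISAT2 and StringTie 2.1.6, and the build mm10, although the identifiers are human. Strand use in counting is not given in the sources used here. Groups came from the sample labels. FPKM depend on everything mapped in the same library and do not hold its depth, so no count model, counting interval or detection limit was applied.

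Genes averaging 1 FPKM or more over all libraries were fitted in R 4.3.3 with limma 3.58.1 (trended empirical Bayes) on log2(FPKM + 1), Era+VK against Era, with Benjamini-Hochberg adjustment, 95% intervals and a threshold of 0.05. The fit was tested on simulated data. Ratios to ATF4 were compared by an exact permutation test. Positions and shared exons are from the GENCODE annotation of GRCh38, matched by Ensembl identifier. Promoters are from RefSeq on GRCh38.p14 and were found for 9 of the 10 regulators, NUPR1 not among them. Python 3.11.15 and matplotlib 3.10.9 were used for the rest.

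The 10 regulators and the lists were chosen with earlier results of these data known, so their counts are descriptions and no set test was run. Beside the 10, the genes named are at most the 2 largest calls in each direction per list and the 5 genes closest to ATF4. The eIF2 subunits and kinases, PPP1R15A and every paralog are also named, EIF2S1 and EIF2S3 after their values were seen. NUP62, MARS1, MBD6 and antisense or pseudogene neighbours of the 10 were read for shared bases. The GO lists in the closing section were chosen after the data were examined. A search for the bZIP basic region in the proteins was not run. Alternatives were another pseudocount (0.1), no filter, a filter in every library, quantile normalization, rescaling without mitochondrially encoded genes, the replicate number as a block, leaving out each library, and Era+VK without replicates 2 and 3.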

Additional observations from a re-analysis of the deposited data

How the results depend on the processing

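Of all genes tested, 74 were called, against 1 with no filter, 122 with at least 1 FPKM in every library, 112 after quantile normalization, 42 with the replicate block, 35 with Era+VK replicate 1 alone and 2 to 70 with 1 library left out (2, 2 and 5 without Era replicates 1, 2 and 3, and 42 without Era+VK replicate 3). No filter tests 31325 genes in place of 11981; for the left-out libraries the cause was not tested. Of the regulators, 3 were called, against 0 with no filter and 0 to 4 with 1 library left out. The count was 0 without Era replicate 1, 2 or 3 (6, 6 and 5 lower at an unadjusted p under 0.05 in limma; 6 with no filter), 2 without Era+VK replicate 3 and 2 in Era+VK replicate 1 alone. Of the genes of the lists, 24 were called, against 1 with no filter and 1 to 20 with 1 library left out (1 without any of the Era libraries).

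The log2 fold change of ATF4 was -0.55 with no filter (limma adjusted p = 0.0877) and -0.58 to -0.50 with 1 library left out. CEBPB turned to 0.047 in Era+VK replicate 1 alone. The ratio of CEBPG to ATF4 differed by 0.0064 in log2 and turned to -0.073 without a pseudocount, -0.019 without Era replicate 1, -0.017 without Era replicate 3 and -0.0105 without Era+VK replicate 1 (range -0.019 to 0.055 with 1 library left out); the cause was not tested. The other 9 regulators kept their direction under all 13 alternatives.

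Same-numbered libraries correlated by 0.07, 0.10 and 0.02 in their deviations from the group means, so the numbers were not taken as pairs. With the replicate block ATF4, CEBPG and NUPR1 were called (limma adjusted p = 0.0290, 0.0313 and 0.0399) and TRIB3 was not (0.0551).

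With 3 libraries a group and unknown depth, differences of the size of those of ATF3, SESN2 and DDIT4 did not pass, which does not show that they are absent.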

Other observations

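The files annotate each gene with GO terms, and 4 terms around the regulators were read after the data were examined, leaving out the 10 regulators themselves. Among 36 tested genes of the cellular response to amino acid starvation, limma called 0 (3 lower and 1 higher at an unadjusted p under 0.05, median log2 fold change 0.01). Among 5 tested genes of the PERK-mediated unfolded protein response it called 0 (0 in either direction at an unadjusted p under 0.05, median 0.07). Among 21 tested genes of the intrinsic apoptotic pathway in response to endoplasmic reticulum stress it called 1, CHAC1, as lower and 0 as higher (5 lower and 2 higher at an unadjusted p under 0.05, median -0.05). Among 12 tested genes of integrated stress response signaling it called 0 (0 lower and 1 higher at an unadjusted p under 0.05, median 0.04). Most of these 12 are bZIP factors or an eIF2 kinase already counted in the lists above.

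ATF3, SESN2 and DDIT4 are also induced by p53 or by other stresses outside the eIF2 pathway. Of 14 tested p53 targets, limma called 0 (1 lower and 0 higher at an unadjusted p under 0.05), with a median log2 fold change of -0.03.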
